A study of Mus musculus with 10 samples.

Results

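Complement is a cascade of plasma and tissue proteins that marks cells and microbes for removal. C1q, a hexamer built from the chains encoded by C1qa, C1qb and C1qc, starts its classical route, C4 is cleaved next, and both the classical and the alternative route meet at the cleavage of C3. Factor B, the product of Cfb, joins with C3b to form the alternative convertase, and regulators on cells and in plasma restrain it. In kidney, proximal tubule cells are known to make C3 and C4 themselves, and resident macrophages are a known source of C1q.

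The 6 genes described here, C3, C4b, Cfb, C1qa, C1qb and C1qc, were taken as named out of 28808 genes listed in the tables, and each was followed in tubular cells and in macrophages on each day. Kidney cortex of 4-week-old mice was made into single-cell suspensions and run through Drop-seq, which captures the RNA of each cell on a barcoded bead and reads its 3' end. The 10 libraries were 1 of normal kidney (control), 1 each of days 1, 2 and 4 after injury, and 2 each of days 7, 11 and 14. Injured kidneys are labelled by day alone, and all groups carry the same age. Genotype, strain, sex, kind of injury and the animal behind each library are not named in the labels, so p-values measure the spread between these libraries, which may be technical.

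After filtering, the libraries held 3568 to 6941 cells and 7091848 to 29446508 unique molecular identifiers (UMIs, 1 per captured RNA molecule). A cell was called tubular or macrophage from raw UMIs of marker genes that include none of the 6 complement genes. That gave 1869 to 6439 tubular-gated cells per library. Macrophage-gated cells numbered 38 in the control, 77, 277 and 765 on days 1, 2 and 4, 954 and 1578 on day 7, 103 and 62 on day 11, then 33 and 51 by day 14. They were 0.619% of control cells and 26.3% and 30.6% of the day 7 cells. The macrophage gate also takes monocytes and dendritic cells. Of its 12 markers Adgre1 was not in the tables. Markers kept out of the gates stood with them: 12 macrophage genes led by Lyz2, all of them detected, summed to 6224 to 30317 CPM (UMIs scaled to a fixed total) in macrophage-gated cells and 23.5 to 766 CPM in tubular-gated cells. The 8 tubular genes of the same kind summed to 19122 to 59072 CPM in tubular-gated cells and 4253 to 10549 CPM in macrophage-gated cells. Within a library their ratio was closest in day 7 replicate 1, at 19122 against 6005 CPM. It was widest in day 11 replicate 1, at 50797 against 4253 CPM. Sums of 4 hepatocyte and 4 erythroid genes reached 206 and 2317 CPM in tubular-gated cells, with medians of 3.54 and 408 CPM. The median mitochondrial share of tubular-gated cells was 24.9% in the control and 4.51% and 6.30% on day 7, and its part in the results below was not tested.

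In the mm10 annotation (GENCODE M21) all 6 genes are protein-coding and on the minus strand. C3 lies at chr17:57203970-57228136, C4b at chr17:34728380-34743882 and Cfb at chr17:34856374-34862518. C1qb (chr4:136880129-136886187), C1qc (chr4:136889804-136893065) and C1qa (chr4:136895917-136898803) are neighbours. Gm20547 overlaps Cfb on the same strand, and C4a, a near-identical copy of C4b annotated as a processed transcript at chr17:34809092-34823464, may share its reads, so the values of C4b and Cfb carry that uncertainty.

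RefSeq promoter sequences (GRCm38.p6) were matched for 3 of the 6 genes, C3, C1qb and C1qc. The 250 bases before the RefSeq start of each are shown on the gene's strand, since these are the members with an entry in the RefSeq table. Capitals mark matches to short motifs searched on both strands: C/EBP (TTGCNNAA), PU.1 (GAGGAA), NF-kB, STAT (TTCNNNGAA), an interferon response element and the TATA box (TATAAA).
C3 (chr17:57228137-57228386): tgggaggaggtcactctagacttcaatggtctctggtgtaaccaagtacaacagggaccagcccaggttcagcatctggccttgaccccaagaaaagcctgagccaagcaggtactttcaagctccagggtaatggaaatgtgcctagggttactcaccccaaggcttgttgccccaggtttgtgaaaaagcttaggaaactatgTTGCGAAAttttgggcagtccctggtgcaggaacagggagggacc
C1qb (chr4:136886201-136886450): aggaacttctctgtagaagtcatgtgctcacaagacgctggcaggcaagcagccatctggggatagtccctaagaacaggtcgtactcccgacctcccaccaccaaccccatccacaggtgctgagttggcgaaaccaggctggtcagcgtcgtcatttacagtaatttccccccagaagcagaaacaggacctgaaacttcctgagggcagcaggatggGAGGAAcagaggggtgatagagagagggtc
C1qc (chr4:136892915-136893164): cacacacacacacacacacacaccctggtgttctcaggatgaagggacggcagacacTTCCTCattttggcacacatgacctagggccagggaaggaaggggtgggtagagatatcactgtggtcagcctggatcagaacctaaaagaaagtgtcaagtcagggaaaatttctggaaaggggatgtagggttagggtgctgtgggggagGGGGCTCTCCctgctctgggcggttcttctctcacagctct
C3 held 1 C/EBP match that began 45 bases before the RefSeq start, a motif found in 9.56% of the 32851 promoters of the same length. C1qb and C1qc each held 1 PU.1 match, 30 bases before the start in C1qb and on the opposite strand in C1qc, and 23.3% of all promoters held one. C1qc also held 1 NF-kB match, present in 3.90% of promoters. The RefSeq start of C1qc differs from the GENCODE start given above, so the part of its window that holds the NF-kB match lies inside the GENCODE gene, while the PU.1 match lies before it. The motifs did not overlap one another, and the other motifs had no match in these 3 windows. A match describes the letters and does not show a bound factor.

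The first question was which cells held the message of each gene. C3, C4b and Cfb UMIs lay mostly in tubular-gated cells, and C1q UMIs mostly in macrophage-gated cells. Tubular-gated cells held 80.8% to 98.9% of a library's C3 UMIs, at least 69.1% of its C4b UMIs and 72.5% to 99.0% of its Cfb UMIs. Macrophage-gated cells held 45.6% to 93.7% of C1qa, 47.4% to 93.7% of C1qb and 42.1% to 96.9% of C1qc, with the lowest value of each on day 1, when 42.1% of C1qc UMIs were in cells of no gate. These shares follow the number of cells of each class as well as the level per cell. They also depend on the gate: with a strict gate, which takes only cells without a UMI of another class and so holds fewer cells, the mean day 7 shares of tubular cells were 23.2% for C3, 17.3% for C4b and 18.3% for Cfb. Those of macrophages were then 14.7% for C1qa, 14.3% for C1qb and 14.2% for C1qc, again of the UMIs in all kept cells. On day 7, when macrophages were most numerous, they held 11.8% and 22.4% of C4b UMIs and 16.7% and 16.3% of Cfb UMIs but 3.86% and 4.73% of C3 UMIs.

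**Figure D1:**
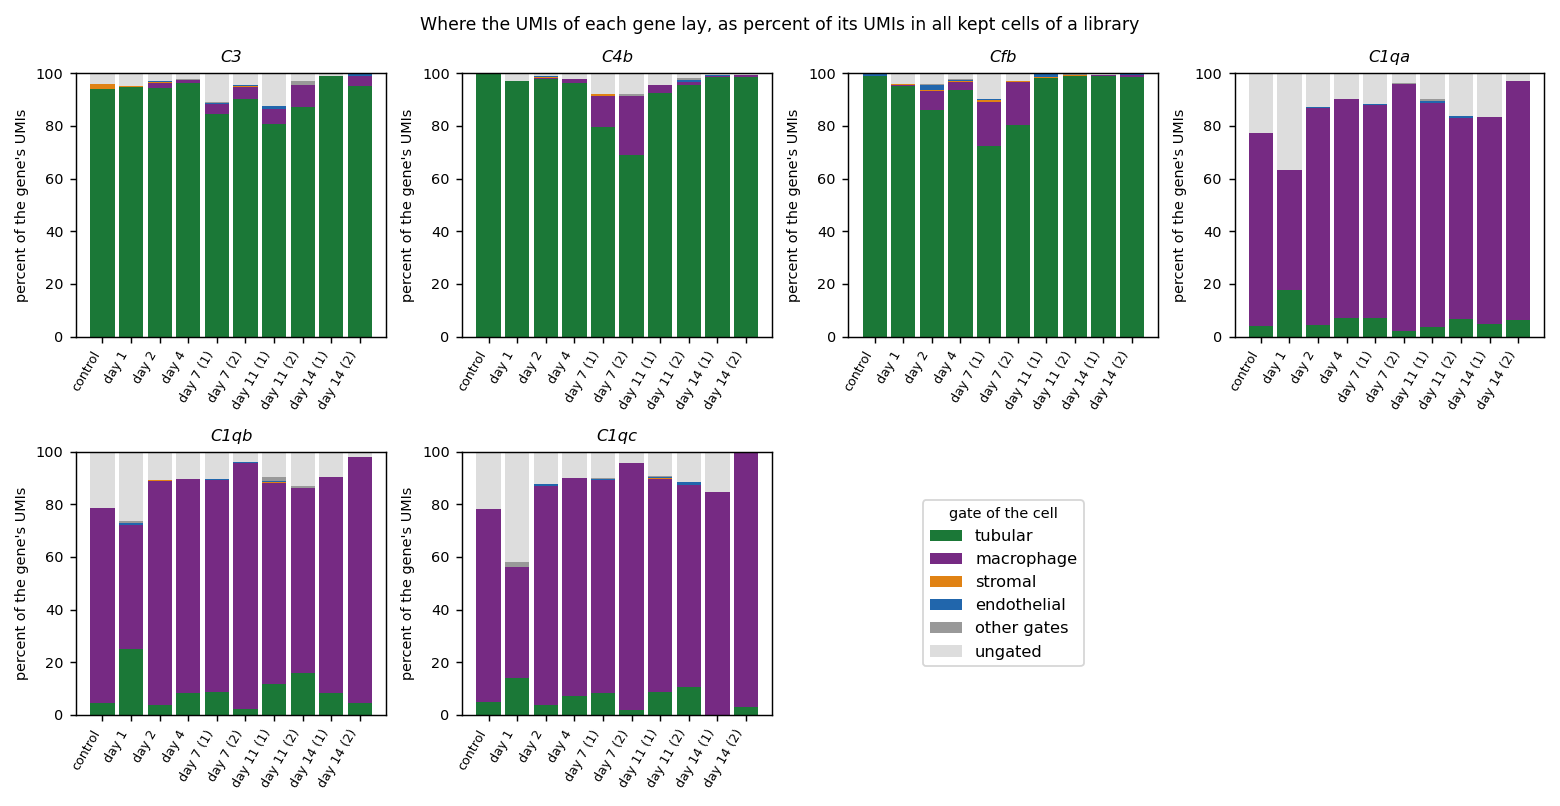
Share of each gene's UMIs (y axis, percent of its UMIs in all kept cells) by the gate of the cell, 1 bar per library, with replicates numbered in parentheses. Tubular-gated cells fill 80.8% to 98.9% of the C3 bars, and macrophage-gated cells fill 45.6% to 93.7% of the C1qa bars.

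Levels within a library separated the sources less for some genes than the shares did. Within libraries, C1qa was higher in macrophage-gated than in tubular-gated cells by 9.0 on the log2 scale (SE 0.68, adjusted p = 1.63e-09), C1qb by 8.68 (SE 0.70, adjusted p = 3.87e-09) and C1qc by 8.99 (SE 0.74, adjusted p = 4.95e-09) by the quasi-likelihood test of edgeR (library as a block, p-values adjusted by Benjamini-Hochberg over all genes, here and throughout). Macrophages were above tubular cells in all 10 libraries. C3 was lower in macrophage-gated cells by the same edgeR test (log2 change -1.48, SE 0.55, adjusted p = 0.0279), as was C4b (-1.06, SE 0.41, adjusted p = 0.0327). Cfb did not pass (-0.38, SE 0.27, adjusted p = 0.232). Macrophage C4b was above the tubular level in day 7 replicate 2 (106% of it), day 11 replicate 1 (225%) and both day 14 libraries (139% and 158%). Cfb was above it on day 2 (132%) and in day 14 replicate 2 (185%). Both genes were below it in the other libraries, and these day 11 and 14 values rest on 1 to 3 macrophage UMIs. Of 11511 genes tested 58.9% were called (23.6% higher in macrophages, 35.3% lower), so the 5 calls among 6 genes stand beside a high background. The C3 call was lost without day 7 replicate 1 (-1.19), without day 7 replicate 2 (-1.26) and with DESeq2 (-0.87). The C4b call was lost without day 7 replicate 1 (-1.12), and the value was -1.66 without day 7 replicate 2. The Cfb difference passed with DESeq2 (-0.81) and under 4 other alternatives, in the same direction.

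The order of the sources for C3 turned over with time. Macrophage-gated cells had 0 CPM of C3 in the control (0 UMIs of 52700, an upper limit of 56.9 CPM), 8.50 on day 1, 10.9 on day 2, 33.7 on day 4 and 66.1 and 80.9 on day 7. Over days 1 to 7 that was 9.70% to 29.6% of the tubular level of the same library, against 4.78% to 13.6% for the tubular injury gene Havcr1 and 4.58% to 21.9% for the abundant proximal gene Kap. By this measure C3 was above both genes in the libraries of days 2, 4 and 7 and below both on day 1. The 8 tubular genes kept out of the gates were Kap, Gpx3, Spp1, Ass1, Atp1b1, Ldhb, Cyp4b1 and Gatm. Whether macrophages themselves make any of them was not tested. These 8 genes summed in macrophages to 9448, 4724 and 10549 CPM on days 1, 2 and 4. In tubular cells of these libraries they summed to 30844, 27068 and 34065 CPM. On day 7 they had 6005 and 5679 CPM in macrophages against 19122 and 24389 CPM. Relative to the tubular level, C3 was above this sum on day 2 and below it on days 1, 4 and 7. On days 11 and 14 the macrophage level was 25.9, 57.8, 0 and 50.4 CPM, above the tubular level in 3 of the 4 libraries, but these values rest on 0 to 6 UMIs. Whether free RNA from tubular cells contributed to C3 in macrophages was not tested.

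C3, the common point of all complement routes, rose in tubular cells after injury and had fallen to a few scaled CPM by day 11. On a scale common to the tubular sums (scaled CPM, CPM after TMM scaling), C3 was 2.04 in the control (95% Poisson interval 1.5 to 2.72, from 47 UMIs), 75.6 on day 1 (70.0 to 81.5), 33.9 by day 2 (31.0 to 37.0) and 167 by day 4 (161 to 172). Both day 7 libraries were near 337, at 335 and 340. Values then were 7.13 and 7.78 on day 11, then 5.42 and 6.62 by day 14. Every injured library was above the control, day 1 lay above day 2, the day 7 libraries were the highest, and the libraries of days 11 and 14 lay below those of days 1 to 7. No test was made of days 1, 2 and 4, which have 1 library each, and Poisson intervals cover counting error only.

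Tubular C3 on day 7 exceeded the control by 7.36 on the log2 scale (SE 0.30, edgeR adjusted p = 2.76e-06), a ratio of 166 between the scaled sums. In all tests of days the single control library is taken to have the spread of the replicated days. From day 7 to day 11 it fell by 5.50 (SE 0.20, edgeR adjusted p = 1.09e-06), and its change from day 11 to day 14 was -0.31 (SE 0.20, edgeR adjusted p = 0.354). Day 14 remained above the control by 1.55 (SE 0.26, edgeR adjusted p = 0.0114), a ratio of 2.93. That last call was lost without day 14 replicate 2 (1.40, edgeR adjusted p = 0.0728) and when only proximal cells were summed (0.94, edgeR adjusted p = 0.0636). Among all genes tested in tubular cells, 34.1% were called on day 7 against the control (16.2% higher, 17.9% lower), 43.9% on day 11 against day 7 (23.0% higher, 21.0% lower), 12% on day 14 against day 11 (6.03% higher, 5.99% lower) and 7.42% on day 14 against the control (4.17% higher, 3.25% lower). TMM scaling set the day 7 tubular values 0.78 lower on the log2 scale relative to the control than plain CPM does, and day 11 values 0.79 higher relative to day 7. The C3 changes of these 2 comparisons are larger than that shift. The Cfb and C4b changes from day 7 to 11 and the Cfb change from the control to day 7, given below, are smaller than it.

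**Figure D2:**
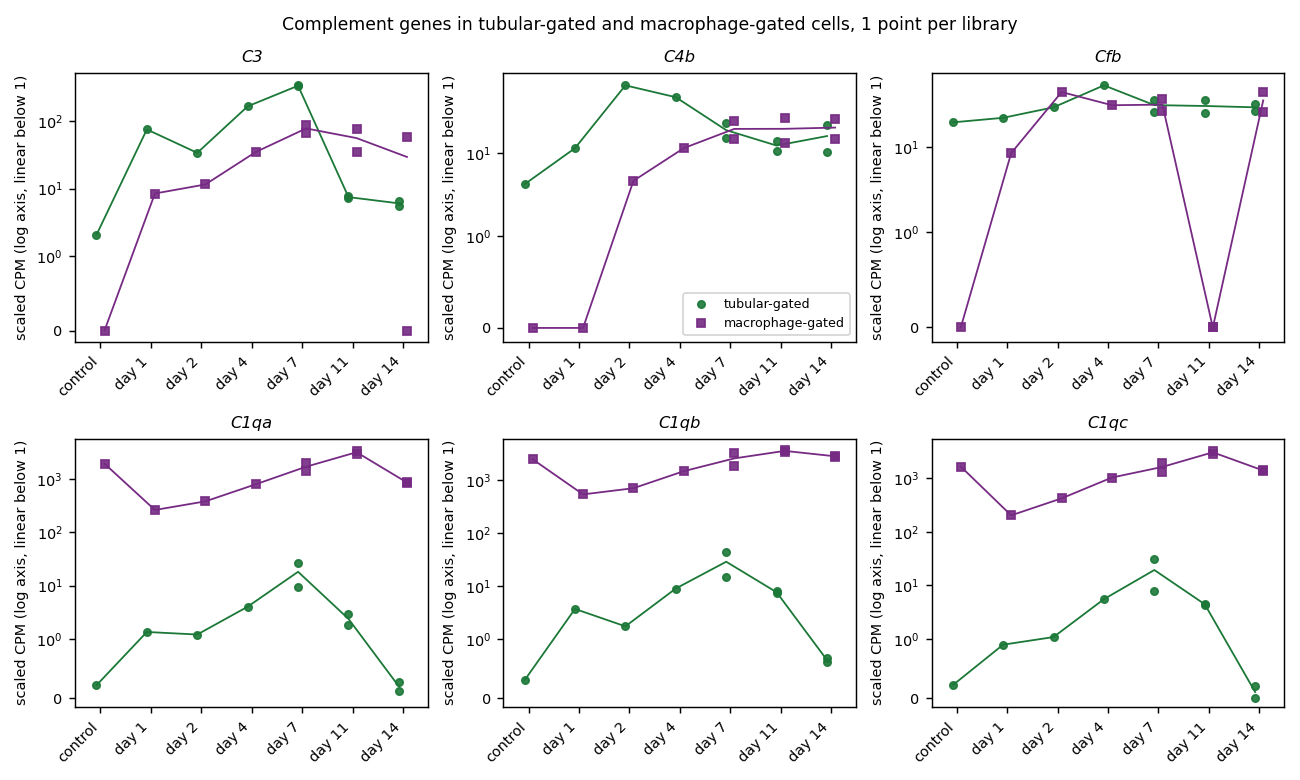
Scaled CPM (y axis, logarithmic above 1) of each gene by day (x axis), 1 point per library, with lines through the means, in tubular-gated (green) and macrophage-gated (purple) cells. Tubular C3 climbs from 2.04 to 335 and 340 on day 7 and is at 5.42 to 7.78 on days 11 and 14, and macrophage C1qa is lowest on day 1, at 261. Scaling was done within each class, so a green and a purple point are not on a common scale.

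Among the tubular segments C3 was highest in proximal cells. In cells whose markers placed them in the proximal tubule, the segment behind the glomerulus that reabsorbs most of the filtrate, C3 was 2.81 CPM in the control, 167, 52.3 and 259 CPM on days 1, 2 and 4, 1174 and 1141 CPM on day 7, 8.58 and 8.23 CPM on day 11, then 5.30 and 6.64 CPM by day 14. Thick limb cells had at most 190 CPM, distal cells at most 142 CPM and collecting duct cells at most 71.3 CPM, each in day 7 replicate 1. The proximal value was the highest of the 4 segments in all 10 libraries, and tubular cells placed in no segment had 532 and 385 CPM on day 7. Proximal cells alone gave log2 changes of 7.75 on day 7 against the control and -6.32 on day 11 against day 7, both called by edgeR's quasi-likelihood test. Kap was lower in all tubular cells on day 7 (-4.94, SE 0.84, edgeR adjusted p = 0.00137), and the proximal class holds only cells that still carry proximal markers, 606 and 853 on day 7 against 3797 in the control.

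**Figure D3:**
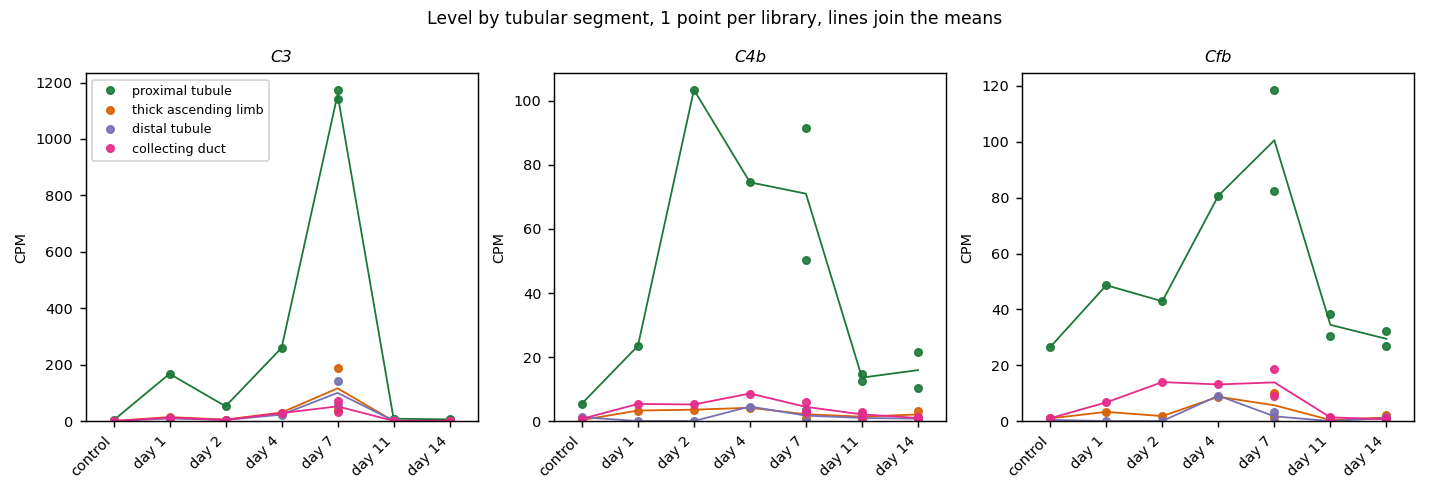
CPM (y axis, linear from 0, a different range in each panel) of C3, C4b and Cfb by day (x axis) in tubular-gated cells of 4 segments, 1 point per library with lines through the means. The proximal points are the highest for all 3 genes, with C3 at 1174 and 1141 CPM on day 7, C4b highest on day 2 at 103 CPM and Cfb highest on day 7 at 119 and 82.5 CPM.

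A minority of tubular cells in each library had a C3 UMI. On day 7, 34.3% and 28.6% of tubular-gated cells had a C3 UMI, and 18.1% and 14.5% after every cell was thinned to 500 UMIs in 1 random draw. The control had 0.828% (0.110% thinned), day 1 had 11.8% (4.16%), day 2 had 8.39% (1.76%) and day 4 had 28.5% (10.7%). On days 11 and 14 the share was 0.752% to 1.29% (0.236% to 0.309% thinned). In macrophage-gated cells, which had median depths of 1304 and 1686 UMIs against 1446 and 2210 in tubular cells, the thinned day 7 shares were 3.67% and 5.01%. The 10% of tubular cells with most C3 held 66.3% and 80.3% of its UMIs on day 7, and single cells reached 40 and 272 C3 UMIs in replicates 1 and 2. That share was 92.6% on day 1, 69.9% on day 4 and 100% in the control and on days 2, 11 and 14. Cells were ranked by C3 itself, so the share is high wherever few cells have a C3 UMI. It does not measure unevenness apart from that.

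C3 was higher in tubular cells that carried injury genes. Havcr1 (KIM-1) and Vcam1, an adhesion molecule, are textbook markers of injured proximal cells and were in no gate. Tubular cells with a Vcam1 UMI had 263 CPM of C3 on day 1, 85.7 on day 2, 307 on day 4, 1203 and 1243 on day 7, 282 and 462 on day 11, then 105 and 332 by day 14. The tubular cells without one had 67.0, 28.5, 107, 215 and 95.8, 3.25 and 3.93, and 3.98 and 4.01 CPM in the same libraries. Cells with Vcam1 were higher in all 9 libraries that held at least 10 of them, including days 11 and 14, where they numbered 12 to 34 a library and held 5 to 27 C3 UMIs.

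In edgeR's quasi-likelihood test with the library as a block, C3 was higher in Vcam1-positive tubular cells by 3.28 (log2, SE 0.45, adjusted p = 9.30e-06) and in Havcr1-positive tubular cells by 1.49 (SE 0.23, adjusted p = 0.000153). Cfb was higher too, by 1.28 with Vcam1 (SE 0.27, edgeR adjusted p = 0.00105) and by 1.14 with Havcr1 (SE 0.23, edgeR adjusted p = 0.00154). C4b with Vcam1 was 12.4, 62.3 and 41.3 CPM on days 1, 2 and 4 against 13.3, 71.6 and 66.1 CPM without, and it was the higher in the 6 later libraries. C4b did not pass in either comparison, with 0.32 (SE 0.25, edgeR adjusted p = 0.411) for Vcam1 and 0.31 (SE 0.25, edgeR adjusted p = 0.395) for Havcr1. Of all genes tested, 23.8% were called with Vcam1 (10.2% higher, 13.6% lower) and 25.7% with Havcr1 (9.99% higher, 15.8% lower). The C3 and Cfb calls held under all 14 alternatives of each comparison. Cells with a Vcam1 UMI were deeper in 8 of the 9 libraries, at 5660 against 2566 mean UMIs on day 1, 10206 against 4112 on day 2 and 5412 against 3173 on day 4. On day 7 they had 2658 and 5985 against 2373 and 4048. The splits pooled all tubular segments, and proximal cells as a whole had day 7 C3 levels, given above, near those of Vcam1-positive cells. The parts of depth and of segment mix in these results were not tested.

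**Figure D4:**
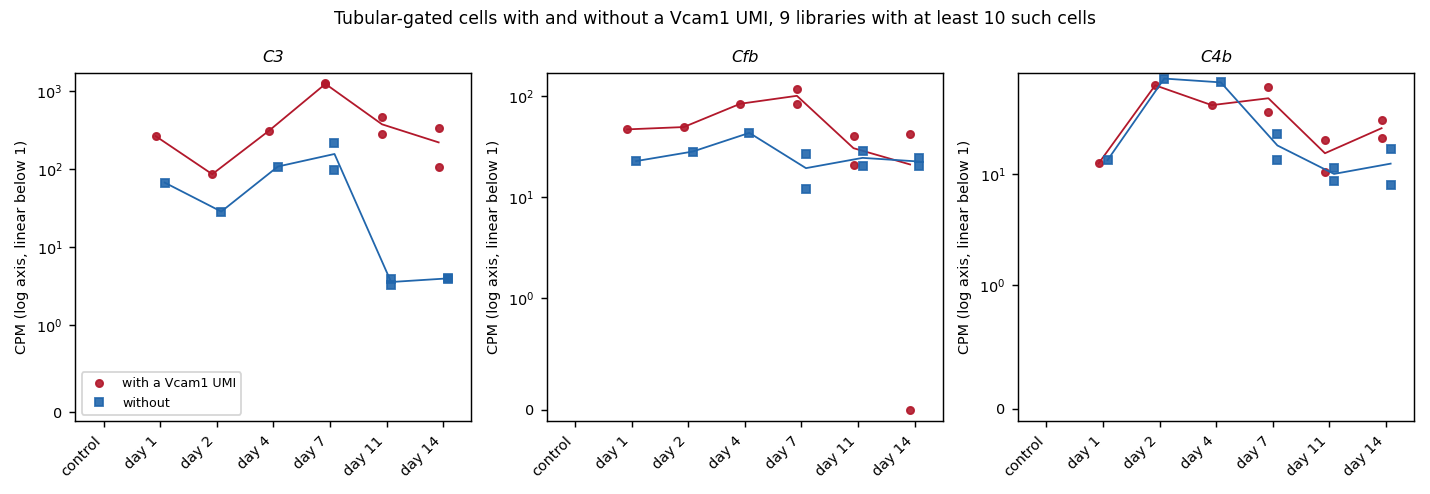
CPM (y axis, logarithmic above 1) of C3, Cfb and C4b in tubular-gated cells with a Vcam1 UMI (red circles) and without one (blue squares) by day (x axis), 1 point per library with lines through the means, for the 9 libraries with at least 10 Vcam1-positive cells. The red C3 points lie above the blue ones of their day throughout, with 282 and 462 against 3.25 and 3.93 CPM on day 11, whereas within a library the red C4b point lies below the blue one on days 1, 2 and 4 and above it later.

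Without either injury gene, C3 in tubular cells was 1.61 CPM in the control, 54.0, 27.0 and 97.4 CPM on days 1, 2 and 4 and 152 and 64.0 CPM on day 7. Cells with both genes had 285, 71.1 and 309 CPM on days 1, 2 and 4, and 1226 and 1240 CPM in the day 7 libraries. On day 7 cells with Vcam1 alone (1123 and 1261 CPM) were close to those with both, and cells with Havcr1 alone were lower (475 and 320 CPM). These 4 classes are described and were not tested against each other.

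C4b, whose product is cleaved once C1 is active, followed another course and was highest on day 2. Scaled CPM in tubular cells were 4.17 in the control (95% Poisson interval 3.38 to 5.10), 11.4 at day 1 (9.25 to 13.8), 64.9 at day 2 (60.9 to 69.1) and 46.7 at day 4 (44.0 to 49.6). The day 7 libraries had 22.6 and 14.9, those of day 11 had 10.4 and 14, and those of day 14 had 21.5 and 10.2. All injured libraries lay above the control, and on this scale both day 7 libraries lay above those of day 11, while day 14 overlapped with each. In plain CPM day 7 had 32.6 and 20.6, above the 8.65 and 11.3 of day 11 and the 16.7 and 7.99 of day 14. Day 7 exceeded the control by 2.14 (log2, SE 0.46, edgeR adjusted p = 0.00493) and day 14 did by 1.93 (SE 0.45, edgeR adjusted p = 0.0335). The changes from day 7 to 11 (-0.59, SE 0.35, edgeR adjusted p = 0.193) and from day 11 to 14 (0.39, SE 0.34, edgeR adjusted p = 0.508) did not pass, but without the filter on low counts the first was called (-0.67, edgeR adjusted p = 0.0182). The day 14 call was lost without day 14 replicate 1 (1.29, edgeR adjusted p = 0.0939) and in proximal cells alone (1.42, edgeR adjusted p = 0.0798).

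In proximal cells C4b was 5.44 CPM in the control, 23.5, 103 and 74.6 CPM on days 1, 2 and 4, 91.6 and 50.4 CPM on day 7, 12.5 and 14.7 CPM on day 11, then 21.5 and 10.3 CPM by day 14. No other segment passed 8.61 CPM. In these cells the fall from day 7 to day 11 was called (-1.55, edgeR adjusted p = 0.00557). The copy C4a was highest on day 2 as well, at 29.5 scaled CPM in tubular cells against 5.65 in the control and 4.95 on day 1.

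Cfb, the alternative-route protease, was present before injury and varied least of these 3 genes. Its scaled CPM in tubular cells were 19.3 in the control (95% Poisson interval 17.5 to 21.2), 21.8 at day 1 (18.9 to 25.1), 28.9 at day 2 (26.3 to 31.8) and 52.2 at day 4 (49.3 to 55.3). The day 7 libraries had 35.6 and 25.8, those of day 11 had 24.7 and 35.3, and those of day 14 had 31.6 and 26.2. On this scale the replicated days overlapped one another and all lay above the control. In plain CPM the control had 15.9, and day 7, at 51.4 and 35.7, lay above the 20.5 and 28.5 of day 11 and the 24.6 and 20.4 of day 14. None of the 4 tests of days passed: 0.66 on day 7 against the control (SE 0.28, edgeR adjusted p = 0.0994), -0.02 on day 11 against day 7 (SE 0.23, edgeR adjusted p = 0.948), -0.05 on day 14 against day 11 (SE 0.23, edgeR adjusted p = 0.911) and 0.58 on day 14 against the control (SE 0.28, edgeR adjusted p = 0.213). Without day 7 replicate 2 the day 7 difference passed (0.88, edgeR adjusted p = 0.0392).

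In proximal cells the values of Cfb were 26.5 CPM in the control, 48.6, 42.9 and 80.7 CPM on days 1, 2 and 4, 119 and 82.5 CPM on day 7, 30.6 and 38.4 CPM on day 11, then 32.1 and 26.8 CPM by day 14. There the rise on day 7 (0.97, edgeR adjusted p = 0.0145) and the fall to day 11 (-0.74, edgeR adjusted p = 0.0200) were both called, and day 7 did not overlap with the control or day 11. The other segments had at most 18.6 CPM. Among proximal cells on day 7, those with a C3 UMI had 142 and 96.8 CPM of Cfb and those without had 53.5 and 43.2, while C4b was 92.9 and 43.2 with C3 against 88.2 and 70.3 without.

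C1q, the sensor of the classical route, had its lowest scaled values in macrophage-gated cells on day 1 and its highest on day 11. In the tests given below, the rise from day 7 to day 11 did not pass for C1qb. The C1qa and C1qc calls were lost under several alternatives. C1qa in scaled CPM of the macrophage sums was 1928 in the control (95% Poisson interval 1553 to 2368, from 91 UMIs), 261 at day 1 (178 to 371), 379 at day 2 (339 to 422) and 792 at day 4 (746 to 840). It was 1396 and 1988 on day 7, 2926 and 3399 on day 11, then 841 and 869 by day 14. The day 11 libraries were above all others, and the day 14 libraries fell below day 7 and the control.

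C1qb took 2437 scaled CPM in the control, 531, 695 and 1455 on days 1, 2 and 4, 1790 and 3265 on day 7, 3375 and 3633 on day 11, then 2829 and 2711 by day 14. C1qc took 1653 in the control, 202, 420 and 1031 on days 1, 2 and 4, 1296 and 1959 on day 7, 2865 and 3243 on day 11, then 1402 and 1385 by day 14. On this scale, in all 3 chains the values of days 1 and 2, from 1 untested library each, were the lowest and those of day 11 the highest. For C1qb day 7 replicate 2, at 3265, was close to day 11. In plain CPM that library was the highest for C1qb, at 2985 against 2535 and 2698 on day 11, and day 14 had 2586 and 2320. C1qa and C1qc were highest on day 11 in plain CPM too. TMM scaling set the day 11 macrophage values 0.34 higher on the log2 scale relative to day 7 than plain CPM does. On day 14 C1qb was, of the 3, nearest to its day 11 level.

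None of the 3 genes passed on day 7 against the control, with log2 changes of -0.19 for C1qa (SE 0.33, edgeR adjusted p = 0.806), 0.05 for C1qb (SE 0.36, edgeR adjusted p = 0.954) and -0.02 for C1qc (SE 0.34, edgeR adjusted p = 0.983), where 2.8% of the 4101 genes tested were called (1.29% higher, 1.51% lower). From day 7 to day 11, C1qa rose by 0.90 (SE 0.26, edgeR adjusted p = 0.0431) and C1qc by 0.91 (SE 0.26, edgeR adjusted p = 0.0453), while C1qb did not pass (0.47, SE 0.28, edgeR adjusted p = 0.391), at a background of 5.39% (4.19% higher, 1.19% lower). Neither call held without day 7 replicate 1 or without any 1 library of day 11 or day 14, with values from 0.67 to 1.01 for C1qa and from 0.64 to 0.999 for C1qc. Both were also lost under a strict gate that allows no UMI of another class (0.40 and 0.82), without a filter on low counts (0.71 each) and without the 5% of barcodes with most UMIs (0.83 and 0.85), and C1qc in a gate without the factor of 3 (0.81). C1qb passed without day 7 replicate 2 (0.94).

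From day 11 to day 14, C1qa fell by 1.88 (SE 0.29, edgeR adjusted p = 0.000837) and C1qc by 1.13 (SE 0.28, edgeR adjusted p = 0.0272), while C1qb changed by -0.34 (SE 0.29, edgeR adjusted p = 0.615), against 4.05% of genes called (1.56% higher, 2.49% lower). The C1qa call held without each of the libraries of days 7, 11 and 14 in turn, and was lost under the strict gate (-1.12, edgeR adjusted p = 0.372). Lyz2 fell in the same macrophage sums by 1.99 (SE 0.30, edgeR adjusted p = 0.000662). The C1qc call was lost without either library of day 11 (-1.22 and -1.09) or of day 14 (-1.13 and -1.20), and under the strict gate (-1.80, edgeR adjusted p = 0.163). On day 14 against the control none passed, at 0.439% of genes called (0.293% higher, 0.146% lower): C1qa had -1.17 (SE 0.35, edgeR adjusted p = 0.181), C1qb 0.18 (SE 0.37, edgeR adjusted p = 0.850) and C1qc -0.25 (SE 0.36, edgeR adjusted p = 0.784). The C1qa difference passed without day 7 replicate 1 (-1.23), without day 7 replicate 2 (-1.29) and with DESeq2 (-1.29). C4b and Cfb did not reach the count filter in macrophages. C3, with 0 UMIs in the control macrophages and 374 on day 7, was at least 1.29-fold higher on day 7 against a floor of 3 counts and was not called (edgeR adjusted p = 0.227).

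The balance of the chains also differed between libraries. C1qa per C1qb had its lowest values on day 14, and C1qc per C1qb on day 1, when the levels were lowest. Macrophage-gated cells held 0.791 C1qa UMIs per C1qb UMI in the control (95% interval 0.594 to 1.05), 0.492 on day 1, 0.545 on day 2, 0.544 on day 4, 0.780 and 0.609 on day 7, 0.867 and 0.936 on day 11, then 0.297 and 0.321 by day 14. The day 14 ratios rest on 33 and 59 C1qa UMIs from 33 and 51 cells, with 95% intervals of 0.195 to 0.442 and 0.235 to 0.432, which lie below the intervals of both day 11 libraries and of the control. They overlap the day 1 interval of 0.309 to 0.768. C1qc per C1qb was 0.678 in the control, 0.381 on day 1 (95% interval 0.228 to 0.618) and 0.600 to 0.724 on days 2 to 7. It was 0.849 and 0.893 on day 11, then 0.495 and 0.511 by day 14. These ratios compare UMIs between genes without a correction for capture and were not tested between days.

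Part of the early low C1q went with monocyte markers. Plac8, Ly6c2, Ccr2 and Chi3l3, genes of blood monocytes, were used to split the macrophage-gated cells after gating. On day 1 the 62 cells with such a UMI had 71.0 CPM of C1qa (95% Poisson interval 28.5 to 146), and the 15 cells without had 1262 (809 to 1878). On day 2 the values were 179 (151 to 210) and 1950 (1677 to 2255), and on day 4 they were 602 (557 to 649) and 1289 (1172 to 1414). The cells without monocyte markers stayed at 1262 to 1950 CPM from the control to day 7, where both kinds were alike: 1358 and 1783 CPM with the markers and 1361 and 1903 without. Cells with a monocyte-marker UMI made up 62 of 77 macrophage-gated cells on day 1, 248 of 277 on day 2, 597 of 765 on day 4 and 12 of 38 in the control. They were still the majority later, with 637 of 954 and 1138 of 1578 in the day 7 libraries, 64 of 103 and 38 of 62 in those of day 11, and 19 of 33 and 41 of 51 in those of day 14. On day 11 they had 2055 and 2543 CPM of C1qa, and the cells without markers had 2459 and 2498 CPM.

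C1qb and C1qc divided in the same way. C1qb was 172, 421 and 1164 CPM with the markers and 2419, 2754 and 2179 CPM without on days 1, 2 and 4, and C1qc was 40.6, 231 and 796 CPM against 1052, 1875 and 1636 CPM. On day 14 the monocyte-marker cells had 563 and 674 CPM of C1qa and the others 1052 and 1034 CPM, with intervals that overlap. This split was described for each library and not tested across them.

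**Figure D5:**
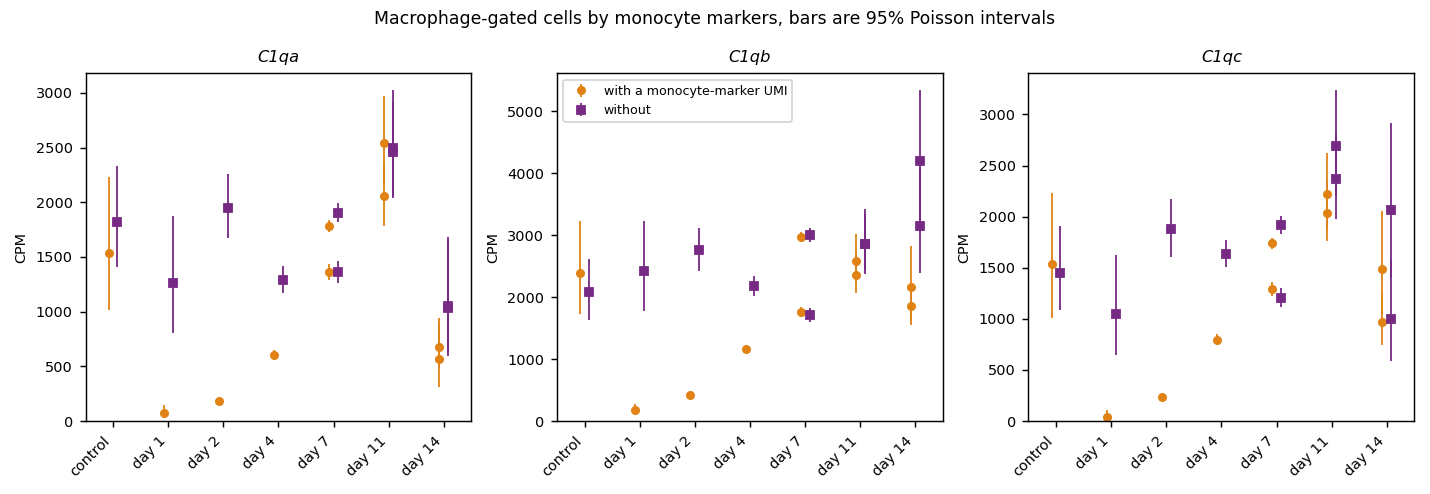
CPM (y axis, linear from 0) of C1qa, C1qb and C1qc in macrophage-gated cells with a monocyte-marker UMI (orange circles) and without one (purple squares) by day (x axis), 1 point per library, with 95% Poisson intervals as bars. On days 1, 2 and 4 the orange points lie below the purple ones, as in C1qa on day 2 at 179 against 1950 CPM, and on day 7 they lie close together.

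C1q UMIs also appeared in tubular-gated cells, where their sum moved with that of a macrophage gene. C1qa in tubular sums was 0.217 scaled CPM in the control, 1.35, 1.21 and 4.02 on days 1, 2 and 4, 26.8 and 9.48 on day 7, 1.81 and 2.93 on day 11, then 0.123 and 0.273 by day 14. In day 7 replicate 1 the tubular level was 2.85% of the macrophage level for C1qa, 3.56% for C1qb, 3.51% for C1qc and 2.63% for Lyz2. In day 7 replicate 2 it was 0.722%, 0.676%, 0.611% and 0.582% in the same order. The other 8 libraries ranged from 0% to 0.804% for the C1q genes and from 0.0177% to 0.890% for Lyz2. Of the 12 macrophage check genes all were detected in tubular sums.

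The test across all genes called the 3 C1q genes higher in tubular cells on day 7 than in the control, with log2 changes of 6.29, 6.48 and 6.37 for C1qa, C1qb and C1qc (edgeR adjusted p = 0.000336, 0.000174 and 0.00100), and Lyz2 by 9.16 (edgeR adjusted p = 9.45e-05). Leaving out 1 library of days 7, 11 or 14 gave 5.40 to 6.89 for C1qa, 5.55 to 7.10 for C1qb and 5.14 to 7.08 for C1qc. The control held 5 to 7 UMIs of each C1q gene. They fell from day 7 to day 11 by 2.90, 1.88 and 2.08 (edgeR adjusted p = 0.00124, 0.00541 and 0.0148), with C1qc lost without day 7 replicate 1 (-0.84), day 11 replicate 1 (-2.06) or day 11 replicate 2 (-2.10). Without day 7 replicate 1 the fall was 2.0 for C1qa and 0.93 for C1qb, and without day 7 replicate 2 it was 3.50 and 2.49, called each time. They fell again from day 11 to day 14, by 3.54 for C1qa and C1qb and by 5.37 for C1qc (edgeR adjusted p = 0.0201, 0.00588 and 0.00991). C1qa was lost there without day 11 replicate 2 (-3.17), day 14 replicate 1 (-3.08) or day 14 replicate 2 (-4.17), and C1qc without day 11 replicate 2 (-5.36). The C1qc change was -4.38 without day 14 replicate 1 and -8.93 without day 14 replicate 2. On day 14 against the control none passed. With the 3 C1q genes, C3 and C4b, 5 of the 6 genes were called higher on day 7 against the control, beside 16.2% of all genes tested. From day 7 to day 11, 4 of the 6 were called lower, beside 21.0% of all genes. From day 11 to day 14 the 3 C1q genes were lower, beside 5.99%, and on day 14 against the control 2, C3 and C4b, were higher, beside 4.17%. Vcam1-positive tubular cells held less C1qb than the others (-0.79, SE 0.21, edgeR adjusted p = 0.00723), a call lost with DESeq2 (-0.56) and without the barcodes of most UMIs (-0.55). In a test of whether macrophages and tubular cells changed differently, 3.93% of 15220 genes were called from the control to day 7 (2.33% higher, 1.6% lower) and 5.57% from day 7 to day 11 (2.27% higher, 3.3% lower), and the C1q genes were called in both, with values given further on. Whether free RNA or adhering macrophages contributed to C1q in tubular sums was not tested.

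The rest of the cascade was read from 4 lists of 47 other complement genes, of which the tables held 44. In tubular cells 30 of them were tested on day 7 against the control, and 14 were higher and 3 lower, where 16.2% of all genes were higher and 17.9% lower. Among the classical and lectin genes 4 of 9 tested rose and none fell, with a median log2 change of 2.56 against 0.04 for all genes. C1s (5.10, SE 0.43), C1ra (4.78, SE 0.39) and C1rb (4.58, SE 0.62), the proteases carried by C1q, rose with edgeR adjusted p-values of 2.51e-05, 2.12e-05 and 0.000369. C1ra was 1.26 scaled CPM in the control, 19.1, 16.1 and 35.2 on days 1, 2 and 4, 41.0 and 29.2 on day 7, and 1.40 to 2.78 on days 11 and 14, with no overlap between day 7 and days 11 or 14.

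Of 10 regulators tested 4 rose and none fell. Cfi, factor I, which cleaves C3b, rose by 4.62 (SE 0.53, edgeR adjusted p = 0.000137) and Clu, clusterin, an inhibitor of the terminal complex, by 4.27 (SE 0.40, edgeR adjusted p = 4.24e-05). Cd55 and Cd59a, membrane shields against complement, were 13.6 and 107 scaled CPM in the control and 7.72 and 9.94, and 144 and 136, on day 7. Of 3 terminal and alternative genes tested, C8a fell by 5.42 (SE 0.44, edgeR adjusted p = 1.97e-05) and C8g by 2.04 (SE 0.38, edgeR adjusted p = 0.00216), and Cfp, properdin, rose by 2.01 (SE 0.52, edgeR adjusted p = 0.0136). C8a was 15.7 scaled CPM in the control, 0.151 and 0.458 on day 7 and 15.9 and 13.2 on day 14. Of 8 receptors tested 5 rose and 1, C1qbp, fell by 0.81 (SE 0.19, edgeR adjusted p = 0.00784). Cfp and 6 of the 7 receptors tested between sources were higher in macrophages than in tubular cells, and the macrophage gene Lyz2 rose in the same tubular sums; its part in these calls was not tested.

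From day 7 to day 11 in tubular cells, 12 of the 30 fell and 5 rose, against 21.0% and 23.0% of all genes. From day 11 to day 14, 6 fell and 1 rose, against 5.99% and 6.03%, and on day 14 against the control 2 rose and 1 fell, against 4.17% and 3.25%. C2, the partner of C4 in the classical convertase, was among the genes still higher on day 14 (1.78, SE 0.32, edgeR adjusted p = 0.0144), with 22.6 and 21.9 scaled CPM against 6.48 in the control. It was highest on day 4, at 77.4. Cd59a was lower on day 14 (-0.80, SE 0.20, edgeR adjusted p = 0.0420), at 59.2 and 63.2 scaled CPM against 107 in the control.

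Most receptors tested were higher in macrophages than in tubular cells. Within libraries 6 of 7 were higher there and none lower, where 23.6% of all genes were higher and 35.3% lower, with a median log2 difference of 6.80 against -0.18 for all genes. C3ar1, the receptor for C3a, was higher by 7.84 (SE 0.44, edgeR adjusted p = 4.22e-11), C5ar1, for C5a, by 7.81 (SE 0.49, edgeR adjusted p = 1.43e-10) and Itgb2, a chain of the receptors for iC3b, by 7.18 (SE 0.36, edgeR adjusted p = 1.42e-11). C3ar1 in macrophages stayed between 178 and 395 scaled CPM in all 10 libraries. Of 6 regulators tested 1 was higher in macrophages, Cr1l (0.39, SE 0.16, edgeR adjusted p = 0.0413), and 5 were lower, among them Clu (-3.33, SE 0.22, edgeR adjusted p = 2.91e-10), Cfi (-3.16, SE 0.36, edgeR adjusted p = 3.62e-07) and Cd55 (-3.10, SE 0.40, edgeR adjusted p = 1.74e-06). Between days 10 of the 44 genes were tested in macrophages. On day 7 against the control 3 rose and 0 fell, beside 1.29% and 1.51% of all genes. These were Clu (4.72, SE 1.07), Cfp (2.30, SE 0.61) and Itgam (1.96, SE 0.53). From day 7 to day 11 only Clu was called, with a change of -4.19 (SE 0.60), beside 1.19% of genes lower. The other macrophage tests of days called none. Whether tubular RNA contributed to Clu in macrophages was not tested.

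Vcam1-positive tubular cells held more of the proteases of the classical route. This comparison also pooled the tubular segments, and the part of segment mix was not tested. C1s was higher by 2.81 (SE 0.29, edgeR adjusted p = 2.55e-07), C1ra by 1.95 (SE 0.23, edgeR adjusted p = 1.89e-06) and C1rb by 1.82 (SE 0.28, edgeR adjusted p = 3.69e-05), and 4 of 6 classical and lectin genes tested were higher and none lower, where 10.2% of all genes were higher and 13.6% lower. Of 7 regulators 1, Cfi, was higher (0.89, SE 0.24, edgeR adjusted p = 0.00858) and 4 were lower, among them Cd55 (-1.38, SE 0.29, edgeR adjusted p = 0.00103), Clu (-1.26, SE 0.29, edgeR adjusted p = 0.00249) and Cd59b (-0.92, SE 0.18, edgeR adjusted p = 0.000666). With Havcr1, pooled over segments in the same way, 3 of 5 classical and lectin genes tested were higher and none lower, beside 9.99% and 15.8% of all genes. These were C1ra (1.49, SE 0.27), C1rb (1.40, SE 0.27) and C2 (1.39, SE 0.27). Of 6 regulators tested with Havcr1, 1 was higher, Cfi (0.91, SE 0.24), and 3 were lower, Clu (-2.01, SE 0.20), Cd59b (-0.96, SE 0.19) and Cd59a (-0.92, SE 0.16).

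The genes most like each member are given by Pearson's r of log2(scaled CPM + 1) over the 10 libraries, as a description, since libraries of a day share their day. TMM scaling moved the day 7 tubular values, as given above, and r in plain CPM was not computed. In tubular sums C3 went most with Edn1 (r = 0.991), Cd44 (0.978) and Gc (0.977), and with C1qa at 0.828, C1qb at 0.770, C1qc at 0.722, C4b at 0.494 and Cfb at 0.409. C4b went most with H2-T23 (0.873), Irgm1 (0.869) and Shisa5 (0.852), and with Cfb at 0.715. Cfb went most with Spcs2 (0.924), Txndc9 (0.823) and Ptrh2 (0.822). In macrophage sums C1qa went most with Glul (0.960), Pfdn5 (0.956) and Map1lc3b (0.942), and with C1qc at 0.954 and C1qb at 0.887.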

How the data were processed

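The values are counts of UMIs per gene and barcode, deposited by the authors as 1 table per library, and the tables hold whole numbers. Bowtie2 2.2.7 and the build mm10 are named, without a role, per the submitters' processing notes, and the counting, its annotation and its use of strand are not given in the sources used here. Barcodes needed 500 genes, 500 UMIs and no more than 50% mitochondrial UMIs. This removed 5362 and 5424 barcodes of the day 11 libraries for few genes, and 611 of the control for mitochondrial UMIs. A class needed 3 UMIs from at least 2 of its marker genes and at least 3 times the UMIs of every other class. No doublet caller was run, and barcodes with some UMIs of another class, within that factor, stayed in the gates. Libraries shared at most 11 barcodes.

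UMIs were summed per class and library and tested with edgeR 4.0.16 (R 4.3.3; TMM, its filter on low counts, quasi-likelihood F test, Benjamini-Hochberg over all genes tested, threshold 0.05). The tubular and macrophage fits held 10 libraries with 1 term per group and 3 residual degrees of freedom, and fits within libraries used the library as a block. An SE is the absolute log2 change divided by the square root of F. Poisson and binomial intervals are exact at 95% and cover counting error only, as does the floor of 3 counts. Segments needed 2 UMIs of 1 segment list and more than of any other, and splits by Havcr1, Vcam1 or monocyte markers needed 1 UMI. The tubular fit, the macrophage fit and the fit of macrophages against tubular cells were run on simulated data, in 1 comparison each and with the same spread for every gene. The Havcr1 and Vcam1 fits and that of differing changes between the classes were not. Members, gene lists and tests were chosen with earlier results of these data known. All 6 members were named. Of the pathway lists, at most 3 genes per direction and comparison with the largest change were named among those called whose average log2 CPM reached 2. Cd55, Cd59a and C3ar1 levels were added to that after their values were seen. Alternatives were DESeq2 1.42.0, its size factors, no filter, 5 other gates or cell filters, leaving out single libraries, a replicate block and, chosen after seeing the data, proximal cells only. Replicate numbers were not used to pair the libraries in the reported tests, since the labels do not say that same-numbered libraries belong together. One regulator of the pathway is not reported here.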

Additional observations from a re-analysis of the deposited data

Results flagged for a closer look

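A model with the library as a block tested whether the change between days differed between macrophage-gated and tubular-gated cells. For 7 results it did. The difference is the macrophage change minus the tubular change on the log2 scale, and values of days 7 and 11 are those given above.

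From the control to day 7 the gap between macrophages and tubular cells narrowed for C1qa by -5.99 (SE 0.52), C1qb by -5.98 (SE 0.48) and C1qc by -5.82 (SE 0.53), with edgeR adjusted p-values of 1.66e-27, 3.16e-33 and 3.73e-25. Of 15220 genes tested 3.93% were called (2.33% higher, 1.6% lower), and the median over all genes was 2.85. Without day 7 replicate 1 the 3 values were -5.00, -4.79 and -4.54, and without day 7 replicate 2 they were -7.06, -7.26 and -7.14. The SEs are smaller than those of the tubular changes alone (0.84, 0.78 and 1.02). The model left 3 residual degrees of freedom and had a single control library. Its SEs and p-values, here and below, are therefore likely too small for the spread between libraries. Lyz2 moved the same way by -5.05 (SE 0.40). From day 7 to day 11 the gap widened again for C1qa by 3.61 (SE 0.33), C1qb by 2.17 (SE 0.29) and C1qc by 2.71 (SE 0.31), with edgeR adjusted p-values of 1.17e-24, 8.73e-12 and 1.40e-15, and for Lyz2 by 2.57 (SE 0.23). There 5.57% of genes were called (2.27% higher, 3.3% lower), with a median of -0.58.

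The gap of C3 changed by 4.85 from day 7 to day 11 (SE 0.76, edgeR adjusted p = 2.64e-08), where tubular C3 fell by 5.50 and macrophage C3 changed by -0.58 (SE 0.60, edgeR adjusted p = 0.662), and the day 11 macrophages held 4 and 6 C3 UMIs. The C1qb gap from day 7 to day 11 was 0.83 without day 7 replicate 1 and then not called (edgeR adjusted p = 0.267). Without the same library the day 11 values were 2.47 for C1qa and 1.27 for C1qc, and without day 7 replicate 2 they were 4.68, 3.45 for C1qb and 4.02. Under the strict gate none of the day 11 values of C3, C1qa, C1qb and C1qc was called (4.55, 1.93, 0.88 and 1.54), nor was that of C1qa on day 7 (-3.04), and with DESeq2 the day 11 values of C1qb and C1qc were not called (2.43 and 2.94).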

How the results depend on the processing

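Counts of genes called are given as the reported count, then the alternative. Under a strict gate, with no UMI of another class, macrophage calls went from 115 to 3 on day 7 against the control, from 221 to 27 between days 7 and 11, from 166 to 3 between days 11 and 14 and from 18 to 0 on day 14 against the control, where edgeR left 39 of 696 genes at an unadjusted p under 0.05. The last count was 42 with a gate without the factor of 3, 38 with DESeq2 and 38 without a filter on low counts. The strict gate also gave 2919 for macrophages against tubular cells (6776), 999 for Havcr1 (2979), 1448 for Vcam1 (2882), and 38 (598) and 348 (848) for the gap from the control to day 7 and from day 7 to day 11. DESeq2 gave 386 and 396 for these gaps. Without the 5% of barcodes with most UMIs Havcr1 gave 1799. Without a filter, tubular day 14 gave 2964 against day 11 (1972) and 2367 against the control (1217). Tests under the strict gate hold fewer cells and genes, and the cause of the other changes was not tested.

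Leaving out 1 library of day 7, 11 or 14 gave 4584 to 6981 tubular calls on day 11 against day 7 (7205), 453 to 2789 on day 14 against day 11, and 240 to 2459 on day 14 against the control. Macrophage calls ran from 73 to 279, 16 to 265 and 2 to 67 in these comparisons, Havcr1 from 1973 to 2892, and the gaps from 361 to 761 on day 7 against the control and 434 to 1010 on day 11 against day 7. For single genes 897 alternatives agreed in direction and call, 21 gained a call, 48 lost one and 8 moved.

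With a replicate block, which shared numbers alone do not justify, tubular calls were 7346 between days 7 and 11 and 2135 between days 11 and 14, macrophage calls 220 and 164, and no call of the 6 genes changed. Correlations of same-numbered libraries in tubular sums were 0.369, -0.12 and -0.022. The 33 to 103 macrophage-gated cells of days 11 and 14 and of the control, and the 0 to 6 C3 UMIs in them, limit what can be detected there.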
